A study of Mus musculus with 20 samples.

Results

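The collagen gene family was followed in cultured mouse colon fibroblasts exposed to medium from organoids. Members were all genes whose symbol has the form Col, a number, the letter a and a number, with at least 10 read counts summed over the 20 libraries. This rule found 44 symbols among 47729 gene identifiers and kept 43. Col9a1, with 2 counts in all, was left out, and the members just inside the limit were Col6a5 (16 counts), Col25a1 (18), Col26a1 (21) and Col6a6 (24). By the structure their proteins form, 11 members are fibrillar collagens, 9 form networks, 8 are fibril-associated collagens with interrupted triple helices (FACIT), 6 belong to the type VI microfibril group, 4 span the membrane, and 5 fall outside these classes.

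Polyadenylated RNA was sequenced from colon fibroblasts of the C57BL6/J strain, kept in flat culture in Advanced DMEM F12 with 10% fetal bovine serum, in 5 groups of 4 libraries. The groups were untreated fibroblasts, fibroblasts given conditioned medium for 24 h from the organoid line called APTK or the line called APTKA, and the same 2 media in an irradiated arm (5 fractions of 2 Gy). The labels do not spell out the line names, and which of the cultures, organoid or fibroblast, received the radiation is not stated. There was no group with unconditioned organoid medium and no irradiated untreated group, so effects of the base medium or of radiation alone cannot be told apart from those of the conditioned media. Libraries I to IV of a group are not described as separate cultures or animals. The p-values below therefore reflect only the scatter among the deposited libraries, part or all of which may be technical.

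Collagens are proteins of 3 chains wound into a triple helix, and each gene encodes a chain. Fibrillar collagens assemble into the tension-bearing fibrils of connective tissue, network collagens into sheets such as the basement membrane, and type VI collagen into beaded microfibrils around cells, while FACIT collagens attach to the surface of fibrils. Chains are hydroxylated, glycosylated and folded in the endoplasmic reticulum, exported in large carriers, trimmed outside the cell and crosslinked by lysyl oxidases. In the colon wall, fibroblasts are a main source of fibrillar collagen.

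Library totals lay between 17.3 and 31.6 M counts, with irradiated APTK libraries II (17.3 M) and I (19.6 M) the lowest. Fibroblast markers other than collagens (9 genes: Dcn, Lum, Pdgfra, Pdgfrb, Thy1, Fap, S100a4, Vim and Fbln1) were all detected in every group. The summed level in any library was at most 2.91 CPM (counts scaled to library size) for 9 epithelial markers, with Epcam at 0 in all 4 APTK libraries, at most 10.4 CPM for 7 endothelial markers, 5.50 CPM for 7 leukocyte markers, 0.664 CPM for 5 mesothelial markers, 3.08 CPM for 4 glial markers and 6.65 CPM for 4 adipocyte markers. The 7 pericyte and smooth muscle markers, some of which cultured fibroblasts also express, summed to 832 to 1247 CPM. Irradiated APTK library II was the lowest of its 4 libraries for 26 of the 38 tested members, and irradiated APTKA library IV for 27 of 38. Of the 43 members, 38 passed the expression filter and were tested among 14820 genes. Of these, 32 were at or above the filter's level of 0.379 CPM in all 20 libraries, and Col2a1, Col4a3, Col4a4, Col9a2, Col19a1 and Col22a1 were below it in some, so that they entered the test through the libraries in which they were high.

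Collagen RNA made up a large part of the untreated libraries and a smaller part of those with APTKA medium. The 43 members took 10.4% ± 0.479 of all counts in untreated fibroblasts (mean ± SD, n = 4, as for every group), 9.52% ± 0.291 with APTK medium and 6.58% ± 0.362 with APTKA medium. In the irradiated arm the share was 8.81% ± 0.714 with APTK medium and 7.16% ± 0.554 with APTKA medium. The untreated (9.99 to 11.1%), APTK (9.34 to 9.95%) and APTKA libraries (6.27 to 6.96%) did not overlap. A share of counts weighs long and abundant messages most: Col3a1 alone held 20.5% of the collagen counts of the series, and the 8 highest members held 93.8%.

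By class, the fibrillar share was 7.83% ± 0.403 in untreated, 6.90% ± 0.260 in APTK and 4.93% ± 0.309 in APTKA libraries. The network share was 1.77% ± 0.0612, 1.74% ± 0.0264 and 1.12% ± 0.0538 in the same order, and the type VI share 0.615% ± 0.0195, 0.644% ± 0.0391 and 0.306% ± 0.0104. For network and type VI collagens, untreated and APTK libraries overlapped and APTKA libraries lay below both. The FACIT share was 0.203% ± 0.00938, 0.200% ± 0.0181 and 0.192% ± 0.00925, with overlapping libraries. This share mainly follows Col12a1, which held 1.84% of the collagen counts of the series, against 0.412% for Col16a1 and 0.0420% for Col14a1. It does not show the changes of the scarcer FACIT members.

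**Figure D1:**
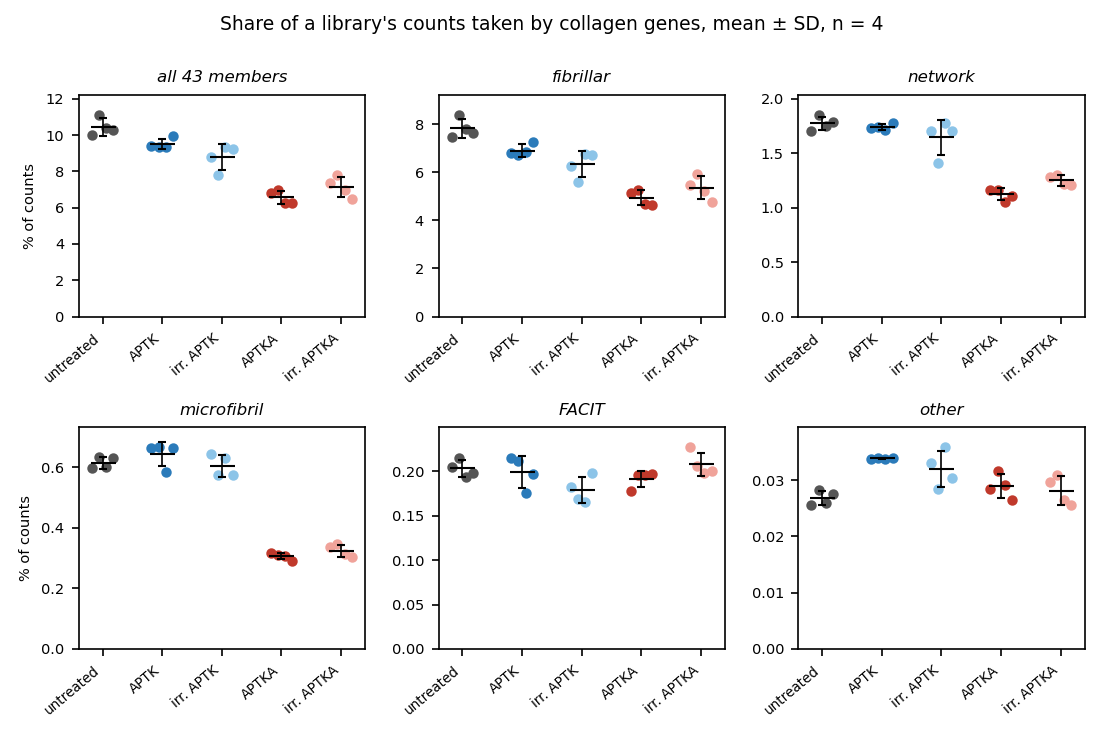
Percent of each library's counts taken by collagen genes (y axes), for all 43 members and for 5 classes, in the 5 groups; points are libraries I to IV, and marks with bars are the mean ± SD of 4 libraries. For all members the APTKA libraries (6.27 to 6.96%) lie below every untreated and APTK library, while the FACIT groups overlap. The FACIT share mainly follows Col12a1.

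Gene by gene, APTKA medium went with lower levels of most of the family. Against untreated fibroblasts, 25 of the 38 tested members were lower with APTKA medium and 6 were higher, by edgeR's quasi-likelihood test at an adjusted p under 0.05. Of all tested genes, 29.9% were lower and 31.5% higher in that comparison. The median log2 fold change was -0.82 for the tested collagens and 0.0031 for all tested genes. Of the 31 called members, 19 differed at least 2-fold, 16 of them lower. Between the libraries of the 2 groups, 30 of the 31 had no overlap. Overlap and 2-fold changes were not counted over all tested genes, so these counts say nothing particular to collagens.

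With APTK medium, 10 members were lower and 5 higher than in untreated fibroblasts, where 22.5% of all tested genes were lower and 20.9% higher, so the number of members lower with APTK medium was near the background. The collagen median was -0.10, 2 members differed at least 2-fold, and 13 of the 15 called had no overlap, again without such counts over all tested genes. Between the media, 25 members were lower and 5 higher with APTKA than with APTK medium, against 31.8% and 31.1% of all tested genes, and the collagen median was -0.62. These 3 comparisons share libraries, so their calls are not independent of each other. Over the 32 members at or above the filter's level in all libraries, 23 were lower and 4 higher with APTKA medium, 9 lower and 5 higher with APTK medium, and 24 lower and 2 higher between the media.

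The largest pattern, with 16 members, was a lower level with APTKA medium than in both untreated and APTK libraries and no call between APTK medium and untreated. It held the chains of types I and VI (Col1a1, Col1a2, Col6a1, Col6a2 and Col6a3), Col4a1, Col4a2, Col4a5, Col5a2, Col8a1, Col9a2, Col10a1, Col15a1, Col23a1, Col27a1 and Col28a1. Another 7 were lower in all 3 comparisons: Col3a1, Col4a6, Col5a1, Col8a2, Col11a1, Col14a1 and Col16a1. Col2a1, Col4a4, Col12a1 and Col17a1 were called in none of the 3. The other fibroblast markers were also lower with APTKA medium: they summed to 6535 to 6721 CPM in untreated, 6923 to 7343 CPM in APTK and 3814 to 4016 CPM in APTKA libraries. Against untreated, 8 of these 9 markers were lower with APTKA medium and none higher, where 29.9% of all tested genes were lower and 31.5% higher. With APTK medium 5 were higher and none lower, where 20.9% of all tested genes were higher and 22.5% lower. The 7 pericyte and smooth muscle markers summed to 997 to 1216 CPM in untreated, 1081 to 1247 CPM in APTK and 856 to 941 CPM in APTKA libraries. With APTKA medium against untreated, 4 of the 7 were lower and 1 higher (median log2 change -0.42), against the same 29.9% and 31.5% of all tested genes. A count this small says nothing particular to these markers. In bulk RNA, fewer cells of a type and less RNA per cell cannot be told apart, and the part of both marker lists in the collagen values was not tested.

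**Figure D2:**
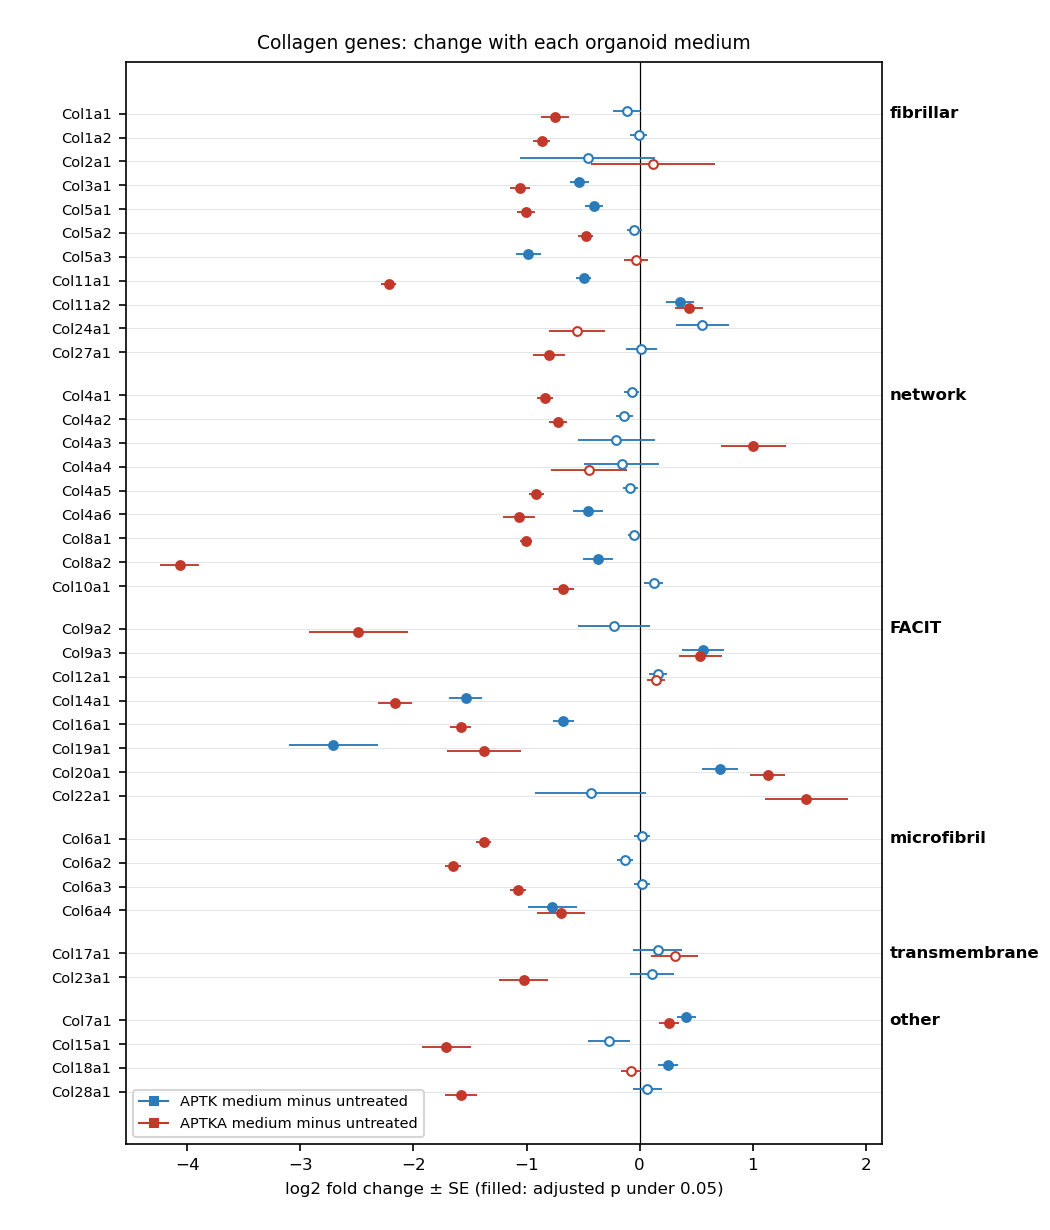
Log2 fold change ± SE (x axis) of the 38 tested collagen genes, grouped by class, for APTK medium (blue) and APTKA medium (red) against untreated fibroblasts; filled points passed an adjusted p of 0.05. Red points lie mostly left of 0, with Col8a2 at -4.07, while the blue points of Col1a1, Col4a1, Col6a1 and Col8a1 lie near 0.

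The fibrillar class holds the most abundant collagen messages of these cells. Per kilobase of annotated exon, Col3a1 was highest over all libraries (1787 CPM per kb), followed by Col5a2 (1715), Col1a1 (1492) and, from the network class, Col4a1 (1332). Of the 11 fibrillar members, 7 were lower and 1 higher with APTKA medium than in untreated fibroblasts. With APTK medium 4 were lower and 1 higher, and 8 were lower and 1 higher with APTKA than with APTK medium. The shares of all tested genes were 29.9% lower and 31.5% higher, 22.5% and 20.9%, and 31.8% and 31.1% in the same order.

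Col3a1, the single chain of type III collagen, measured 25201, 27584, 26793 and 25807 CPM in untreated libraries I to IV. With APTK medium it measured 18269, 17095, 18324 and 19146 CPM, and with APTKA medium 12948, 14010.3, 12139 and 11501 CPM. The 3 groups did not overlap and stepped down in that order. The log2 fold change against untreated was -0.53 ± 0.0859 (SE) with APTK medium (adjusted p = 1.6e-05) and -1.06 ± 0.0866 with APTKA medium (adjusted p = 7.2e-11).

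Type I collagen, built from 2 chains of Col1a1 and 1 of Col1a2, was not called with APTK medium. Col1a2 measured 12382, 14212, 13823 and 13885 CPM in untreated libraries and 13434, 13206, 12856 and 14479 CPM with APTK medium. These values overlapped, with a log2 difference of -0.01 ± 0.0736 (adjusted p = 0.94). With APTKA medium it was 8247, 7686, 7192 and 6664 CPM, below every library of the other 2 groups (-0.87 ± 0.0741 against untreated, adjusted p = 7.1e-11). Col1a1 was 11957 ± 1836 CPM in untreated, 11056 ± 1384 CPM with APTK medium (-0.11 ± 0.124, adjusted p = 0.49) and 7108 ± 329 CPM with APTKA medium (-0.75 ± 0.125, adjusted p = 3.0e-05). The ratio of Col3a1 to Col1a1 per exon length was 1.49 ± 0.189 in untreated, 1.11 ± 0.122 in APTK and 1.19 ± 0.0837 in APTKA libraries. Every APTK library (0.986 to 1.24) lay below every untreated one (1.27 to 1.68), whereas the APTKA libraries (1.14 to 1.31) overlapped both.

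Type V collagen, a minor component that helps to set fibril diameter, split among its 3 chains. Col5a1 was 10582 ± 419 CPM in untreated, 8002 ± 405 CPM with APTK medium (-0.40 ± 0.0780, adjusted p = 0.00013) and 5273 ± 391 CPM with APTKA medium (-1.005 ± 0.0786, adjusted p = 1.4e-11). Col5a2 was 18713 ± 697 CPM in untreated, 18113 ± 328 CPM with APTK medium (-0.05 ± 0.0650, adjusted p = 0.59) and 13442 ± 1312 CPM with APTKA medium (-0.48 ± 0.0652, adjusted p = 3.8e-07). Thus Col5a1 stepped down in both media and Col5a2 passed the threshold with APTKA medium.

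Col5a3 had another order. It measured 331, 343, 319.6 and 341 CPM in untreated libraries, 167, 166, 172 and 169 CPM with APTK medium and 343, 348, 328 and 286 CPM with APTKA medium. The APTK libraries were all low, and untreated and APTKA libraries overlapped. The change was -0.99 ± 0.111 with APTK medium (adjusted p = 5.3e-07), -0.03 ± 0.109 with APTKA medium (adjusted p = 0.82) and 0.95 ± 0.111 between the media (adjusted p = 2.7e-07). Per length, the ratio of Col5a3 to Col5a1 was 0.0394 ± 0.00128 in untreated, 0.0263 ± 0.00151 in APTK and 0.0772 ± 0.00512 in APTKA libraries, without overlap.

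Col11a1, a chain of the type XI collagen that nucleates fibrils, fell furthest in this class with APTKA medium. It measured 553, 570.0, 546 and 540.1 CPM in untreated libraries, 408, 382, 374 and 404 CPM with APTK medium and 129, 125, 101 and 119 CPM with APTKA medium. Its change was -0.50 ± 0.0658 (adjusted p = 7.2e-07) and -2.22 ± 0.0690 (adjusted p = 3.6e-20), and the 3 groups did not overlap. Its partner Col11a2 was the fibrillar member called higher: 16.1 ± 0.837 CPM in untreated, 20.6 ± 2.01 CPM with APTK medium (0.36 ± 0.124, adjusted p = 0.022) and 21.7 ± 1.81 CPM with APTKA medium (0.44 ± 0.124, adjusted p = 0.0038). The APTK call was lost without untreated library I (adjusted p = 0.067) or APTK library III (0.084).

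Col24a1 was called between the media, at 28.4 ± 2.87 CPM with APTK and 13.2 ± 4.69 CPM with APTKA medium (-1.11 ± 0.244, adjusted p = 0.00078). Against untreated (19.4 ± 3.69 CPM) its values of 0.56 ± 0.237 and -0.55 ± 0.248 did not pass, with adjusted p = 0.069 and 0.064. They did pass when single libraries were left out: the APTK value without APTKA library I (0.037) or irradiated APTK library IV (0.047), and the APTKA value without untreated library IV (0.040), APTKA library II (0.020) or III (0.048), or irradiated APTK library IV (0.043). Col27a1 was lower with APTKA medium (-0.80 ± 0.142). Col2a1, the cartilage collagen, was at 0.269 ± 0.0615 CPM in untreated libraries and was not called.

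**Figure D3:**
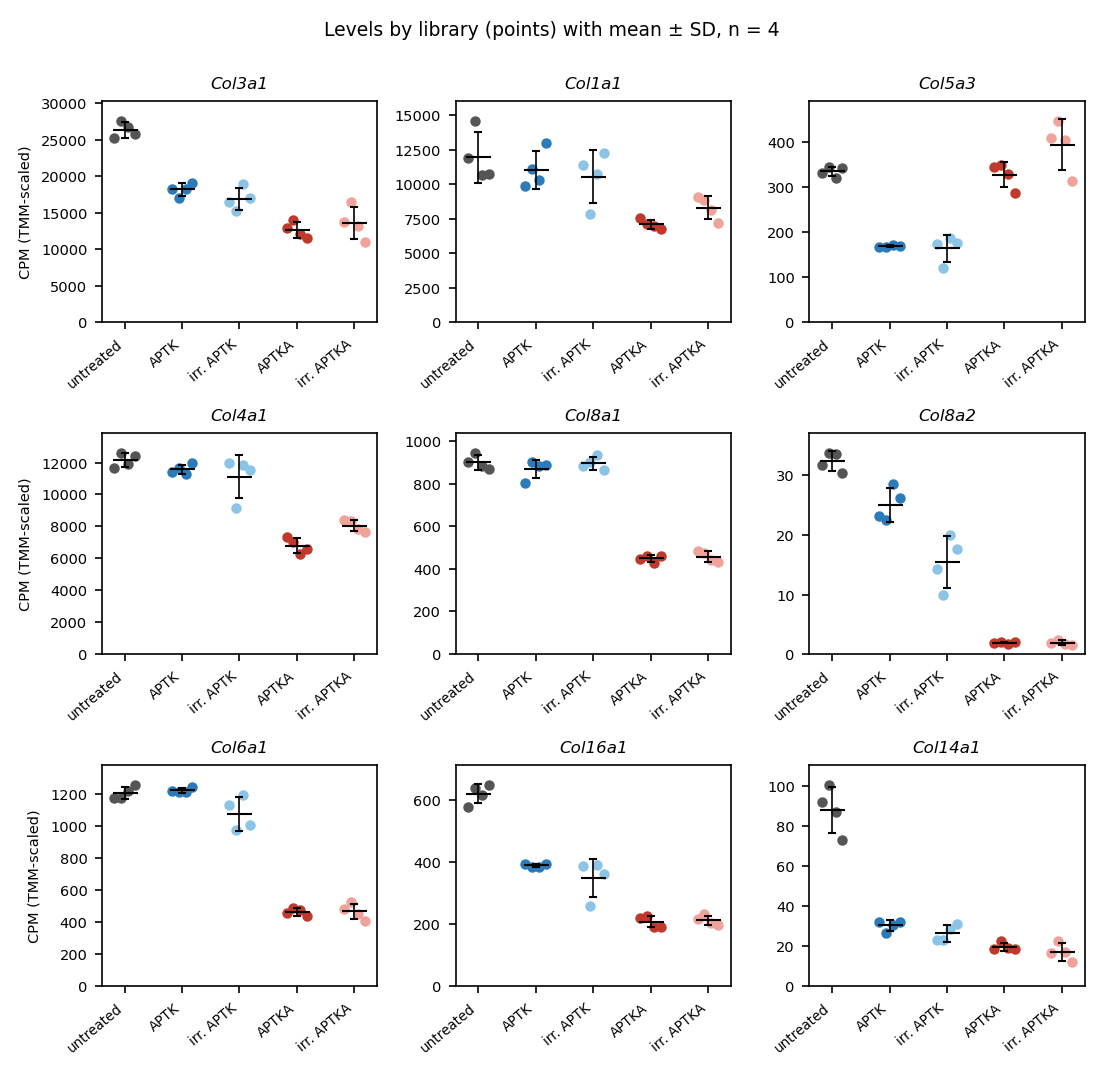
CPM (y axes) of 9 collagen genes in the 5 groups; points are libraries I to IV, marks with bars the mean ± SD of 4 libraries, and irr. stands for irradiated. Col3a1, Col16a1 and Col14a1 step down from untreated to APTK to APTKA medium, Col1a1, Col4a1, Col8a1 and Col6a1 are low with APTKA medium, and Col5a3 is low with APTK medium.

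The network class holds the basement membrane collagens of type IV and the short-chain collagens of types VIII and X. Of its 9 members, 7 were lower and 1 higher with APTKA medium than in untreated fibroblasts. With APTK medium 2 were lower and none higher, and 7 were lower and 1 higher with APTKA than with APTK medium. The shares of all tested genes were 29.9% lower and 31.5% higher, 22.5% and 20.9%, and 31.8% and 31.1% in the same order. The number of network members lower with APTK medium was thus near the background.

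Col4a1 and Col4a2, whose chains join in the common form of type IV collagen, lie head to head (Col4a1 at chr8:11198423-11312826 on the minus strand, Col4a2 at chr8:11312805-11449287 on the plus strand, mm10) with 22 exon bases in common. Col4a1 measured 11662, 12604, 11905 and 12425 CPM in untreated libraries, 11408, 11652, 11261 and 11961 CPM with APTK medium and 7312, 7044, 6239.8 and 6591 CPM with APTKA medium. Untreated and APTK libraries overlapped and all APTKA libraries were lower. The change with APTKA medium was -0.84 ± 0.0683 for Col4a1 (adjusted p = 2.8e-11) and -0.72 ± 0.0754 for Col4a2 (adjusted p = 3.4e-09). With APTK medium the 2 genes measured -0.07 ± 0.0679 and -0.14 ± 0.0751, neither past the threshold. Col4a2 passed it without irradiated APTK library II (adjusted p = 0.029) or with only the compared groups in the fit (0.039). The ratio of Col4a1 to Col4a2 per length was 2.18 ± 0.0202 in untreated, 2.28 ± 0.0996 in APTK and 2.01 ± 0.0509 in APTKA libraries.

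Among the minor type IV chains, Col4a5 (-0.92 ± 0.0658) and Col4a6 (-1.07 ± 0.138), which pair in some basement membranes, were lower with APTKA medium, and Col4a6 also with APTK medium (-0.46 ± 0.132, adjusted p = 0.0062). Col4a3, a chain of specialised basement membranes, had 26 counts over the untreated group, 23 with APTK and 56 with APTKA medium. It was called higher with APTKA medium (1.006 ± 0.286, adjusted p = 0.0043). It passed the filter through the 8 libraries with APTKA medium alone, plain and irradiated, so that this call supports nothing further, and 563 of its exon bases are shared with a gene on the opposite strand. Col4a4, its partner, was not called (-0.45 ± 0.339). Col10a1, the collagen of growth-plate cartilage, went from 30.5 ± 1.56 to 19.2 ± 1.96 CPM with APTKA medium (-0.67 ± 0.0896, adjusted p = 2.4e-07).

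Col8a2 had the largest fold change of any member with APTKA medium. It encodes, with Col8a1, the chains of type VIII collagen, a network collagen of vessel walls and of the corneal basement membrane. Col8a2 (ENSMUSG00000056174, chr4:126286793-126314330, plus strand) measured 31.8, 33.8, 33.6 and 30.3 CPM in untreated libraries, 23.1, 22.5, 28.5 and 26.1 CPM with APTK medium and 1.88, 2.07, 1.74 and 2.00 CPM with APTKA medium. All APTKA libraries were far below the others, and the APTK libraries were below the untreated ones. The log2 fold change with APTKA medium was -4.07 ± 0.172 against untreated (16.7-fold lower, adjusted p = 2.7e-15) and -3.70 ± 0.174 against APTK medium (adjusted p = 2.0e-14). With APTK medium it was -0.37 ± 0.130 (adjusted p = 0.025), a call lost without untreated library II (adjusted p = 0.056) or III (0.057) or APTK library I (0.069) or II (0.080).

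Col8a1 (ENSMUSG00000068196, chr16:57624258-57754737, minus strand) measured 903, 945, 885 and 867 CPM in untreated, 805, 902, 883 and 887 CPM in APTK and 448, 462, 426 and 460.5 CPM in APTKA libraries. Its change was -0.05 ± 0.0524 with APTK medium (adjusted p = 0.47) and -1.003 ± 0.0530 with APTKA medium (adjusted p = 3.3e-15). The ratio of Col8a1 to Col8a2 per length was 15.9 ± 0.600 in untreated, 20.0 ± 2.19 in APTK and 134 ± 5.19 in APTKA libraries, without overlap.

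The proximal promoters of Col8a2 with Col8a1 and of Col5a3 with Col5a1 are shown so that their sequences can be compared. These 2 pairs were picked after their values were seen. Each joins chains of 1 collagen type whose ratio did not overlap among untreated, APTK and APTKA libraries. The same held for the ratios of Col5a1 to Col5a2 and of Col6a1 to Col6a2, so it does not set the shown pairs apart. Neither shown pair held chains called in opposite directions with APTKA medium. Col8a1 and Col8a2 were both lower, and Col5a1 was lower while Col5a3 was not called. Types IV, IX and XI did hold chains called in opposite directions with APTKA medium, with the values given for them. In type IV the chain called higher was Col4a3, which passed the filter through libraries with APTKA medium alone. Each stretch lies just upstream of the start site in RefSeq's models of GRCm38.p6 (the assembly also called mm10), outside annotated exons, and is written 5′ to 3′ on the gene's own strand. Capitals mark matches on either strand to the GC box GGGCGG, the CCAAT box CCAAT and the SMAD box GTCTG, and near the end of the Col8a2 stretch 2 GC boxes overlap. The stretches are at chr4:126286644-126286792 (Col8a2, plus strand), chr16:57754738-57754887 (Col8a1, minus), chr9:20815068-20815217 (Col5a3, minus) and chr2:27886275-27886424 (Col5a1, plus).
Col8a2: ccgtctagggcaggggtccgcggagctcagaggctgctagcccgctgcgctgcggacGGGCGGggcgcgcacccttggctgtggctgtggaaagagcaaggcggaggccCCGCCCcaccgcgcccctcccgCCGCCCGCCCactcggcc
Col8a1: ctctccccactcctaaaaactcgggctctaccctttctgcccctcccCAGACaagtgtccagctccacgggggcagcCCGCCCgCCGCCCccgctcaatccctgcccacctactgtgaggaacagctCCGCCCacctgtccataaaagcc
Col5a3: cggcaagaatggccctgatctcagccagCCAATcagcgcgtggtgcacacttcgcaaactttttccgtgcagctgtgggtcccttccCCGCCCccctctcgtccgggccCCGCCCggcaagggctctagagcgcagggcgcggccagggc
Col5a1: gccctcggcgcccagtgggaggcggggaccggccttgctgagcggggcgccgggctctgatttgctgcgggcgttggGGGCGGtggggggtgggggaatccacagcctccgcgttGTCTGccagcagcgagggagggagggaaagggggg

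The Col8a2 stretch holds 4 GC boxes and neither a CCAAT nor a SMAD box, and 77.9% of its bases are G or C. Col8a1 has 3 GC boxes and a SMAD box, Col5a3 has 2 GC boxes and a CCAAT box, and Col5a1 has a GC box and a SMAD box. Promoters of 34 of the 43 members were matched by symbol, 36 promoters in all. In the 250 bases before the start site, on both strands, the GC box was found in 61.1% of the 36 collagen promoters and in 32.7% of all 32851 promoters of the table. The CCAAT box was in 33.3% and 33.8%, the SMAD box in 44.4% and 42.2%, the TATA box (TATAAA) in 13.9% and 12.4%, and the AP-1 motif (TGANTCA) in 2.78% and 6.75%, with Col6a1 the member that held it. These matches describe letters, not bound sites. Promoters of Col1a1, Col2a1, Col4a3, Col5a2, Col9a3, Col12a1, Col14a1, Col22a1 and Col26a1 were not used here.

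**Figure D4:**
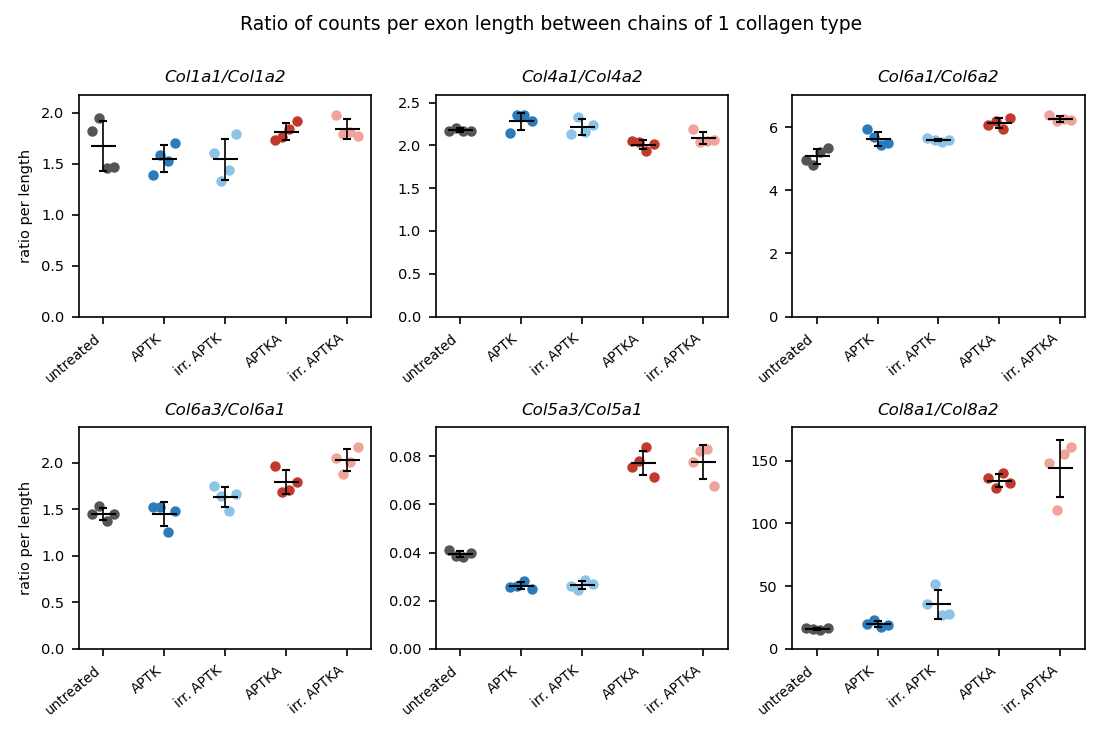
Ratio of CPM per kilobase of exon between chains (y axes) in the 5 groups; points are libraries I to IV, marks with bars the mean ± SD of 4 libraries, and irr. stands for irradiated. Col8a1/Col8a2 goes from a mean of 15.9 in untreated to 134 with APTKA medium and Col5a3/Col5a1 from 0.0394 to 0.0772, while the untreated libraries of Col1a1/Col1a2 overlap those of both media.

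Type VI collagen is assembled from the products of Col6a1, Col6a2 and Col6a3, and all 3 were lower with APTKA medium. Col6a1 measured 1175, 1178, 1221 and 1261 CPM in untreated libraries, 1224, 1218, 1213 and 1248 CPM with APTK medium and 456, 491, 475 and 435 CPM with APTKA medium. The APTKA libraries were all below the others, while untreated and APTK libraries overlapped. The change with APTKA medium was -1.38 ± 0.0684 for Col6a1 (adjusted p = 8.9e-16), -1.65 ± 0.0699 for Col6a2 (adjusted p = 3.2e-17) and -1.08 ± 0.0707 for Col6a3 (adjusted p = 3.0e-13). With APTK medium the same genes measured 0.02 ± 0.0670, -0.13 ± 0.0678 and 0.02 ± 0.0699, none past the threshold. Col6a2 passed it with only the compared groups in the fit (-0.12, adjusted p = 0.029). The ratio of Col6a3 to Col6a1 per length was 1.45 ± 0.0635 in untreated, 1.45 ± 0.130 in APTK and 1.79 ± 0.129 in APTKA libraries, the last above all libraries of the other 2 groups. Col6a4, an alternative chain at 1.53 ± 0.412 CPM in untreated libraries, was lower with APTK (-0.77 ± 0.217, adjusted p = 0.0050) and with APTKA medium (-0.70 ± 0.214, adjusted p = 0.0061).

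FACIT collagens were called in both directions, as were all tested genes. Of 8 members, 4 were lower and 3 higher with APTKA medium, 3 were lower and 2 higher with APTK medium, and 3 were lower and 3 higher between the media. Over all tested genes the shares were 29.9% lower and 31.5% higher, 22.5% and 20.9%, and 31.8% and 31.1% in the same order, so counts this small say nothing particular to the class. Col14a1, which binds the surface of fibrils, measured 92.0, 101, 87.2 and 73.0 CPM in untreated libraries, 32.0, 26.5, 30.6 and 32.2 CPM with APTK medium and 18.3, 22.7, 19.2 and 18.4 CPM with APTKA medium. Its change was -1.54 ± 0.145 with APTK medium (adjusted p = 8.7e-08) and -2.17 ± 0.150 with APTKA medium (adjusted p = 3.1e-10), so the larger step lay between untreated and APTK medium. Col16a1, another fibril-associated chain, was 619.8 ± 31.0 CPM in untreated, 388 ± 5.22 CPM with APTK medium (-0.67 ± 0.0914, adjusted p = 2.5e-06) and 207 ± 18.6 CPM with APTKA medium (-1.58 ± 0.0934, adjusted p = 8.3e-13).

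Col12a1, the most abundant FACIT member, bridges fibrils in tissues under load. It was 1418 ± 82.8 CPM in untreated, 1586 ± 196 CPM with APTK and 1564 ± 62.5 CPM with APTKA medium, with changes of 0.16 ± 0.0797 and 0.14 ± 0.0797 that did not pass (adjusted p = 0.10 and 0.13). Without APTK library III the APTK value was 0.24 and passed (adjusted p = 0.011). Without a filter on low counts both passed, at 0.18 with APTK (adjusted p = 0.021) and 0.16 with APTKA medium (0.025). The APTKA value also passed with only the compared groups in the fit (0.15, adjusted p = 0.023).

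The remaining FACIT members were scarce. Col19a1 had 79 counts over the untreated group, 12 with APTK and 32 with APTKA medium. It was lower with APTK medium (-2.71 ± 0.397, adjusted p = 3.1e-06) and with APTKA medium (-1.38 ± 0.325, adjusted p = 0.00059). It passed the filter through 6 libraries, 4 of them untreated and none with APTK medium, so that these calls support nothing further. It was higher with APTKA than with APTK medium (1.33 ± 0.473, adjusted p = 0.016), a call lost without APTK library I (adjusted p = 0.064). Col22a1, a collagen of tissue junctions, had 16 counts in untreated, 12 in APTK and 48 in APTKA libraries. It was called higher with APTKA medium (1.47 ± 0.367, adjusted p = 0.0010). It passed the filter through 4 libraries with APTKA medium alone, plain and irradiated, so that this call supports nothing further.

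Type IX chains, known from cartilage, went opposite ways. Col9a2 had 55 counts in untreated, 48 in APTK and 10 in APTKA libraries (-2.49 ± 0.434 with APTKA medium, adjusted p = 1.6e-05). It passed the filter through 8 libraries, none of them with APTKA medium, so that this call supports nothing further. Col9a3 was 2.09 ± 0.596 CPM in untreated libraries and was called higher with APTK (0.56 ± 0.187, adjusted p = 0.017) and APTKA medium (0.54 ± 0.187, adjusted p = 0.014), although its groups overlapped. The APTKA call was lost without untreated library I (adjusted p = 0.066) or IV (0.058). The APTK call was lost without untreated library I (0.075) or IV (0.065) or APTK library II (0.052).

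Col20a1 was higher in both media. It measured 2.27 ± 0.202 CPM in untreated libraries, 3.72 ± 0.449 CPM with APTK medium (0.71 ± 0.162, adjusted p = 0.00080) and 5.00 ± 0.861 CPM with APTKA medium (1.13 ± 0.157, adjusted p = 4.9e-07). Every APTK and APTKA library of the plain arm lay above every untreated one, and the media overlapped. The difference between the media (0.42 ± 0.147, adjusted p = 0.014) was lost without APTKA library III (0.065). Col20a1 shares 79 exon bases with another gene of the same strand and Col9a3 234 bases with Tcfl5 on the opposite strand, so the assignment of reads there is uncertain.

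Among the members outside these classes, Col15a1 and Col18a1 are basement membrane collagens, and Col18a1 is the source of endostatin. Col15a1 measured 5.40, 5.43, 3.71 and 4.15 CPM in untreated, 3.34, 4.48, 4.13 and 3.48 CPM in APTK and 0.908, 1.89, 1.83 and 1.10 CPM in APTKA libraries. All APTKA libraries were lowest (-1.71 ± 0.216, adjusted p = 1.4e-07), and the APTK value of -0.27 ± 0.189 did not pass (adjusted p = 0.26). Col18a1 was 186 ± 8.32 CPM in untreated, 221 ± 7.01 CPM with APTK medium (0.25 ± 0.0860, adjusted p = 0.022) and 176 ± 15.9 CPM with APTKA medium (-0.08 ± 0.0861). Its APTK call was lost without untreated library I (adjusted p = 0.064) or III (0.057) or APTK library IV (0.060). Without untreated library I, the number of members called higher with APTK medium was 2 in place of 5.

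Col7a1, which forms the anchoring fibrils under epithelia, was higher in both media, at 74.6 ± 7.19 CPM in untreated, 99.3 ± 6.74 CPM with APTK (0.41 ± 0.0867, adjusted p = 0.00045) and 89.4 ± 5.33 CPM with APTKA medium (0.26 ± 0.0868, adjusted p = 0.012). Col28a1 went from 16.2 ± 1.26 to 5.39 ± 0.604 CPM with APTKA medium (-1.58 ± 0.141, adjusted p = 4.3e-10) and was 17.0 ± 1.21 CPM with APTK medium. Of the membrane-spanning collagens, Col23a1 was lower with APTKA medium (2.17 ± 0.395 to 1.08 ± 0.255 CPM, -1.03 ± 0.219, adjusted p = 0.00020). Col17a1, the hemidesmosome collagen of epithelia, was at 0.976 ± 0.219 CPM in untreated libraries and was not called in either medium.

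The 5 members under the filter were not tested. They were Col13a1 (45 counts over the series), Col6a6 (24), Col26a1 (21), Col25a1 (18) and Col6a5 (16). Col13a1, a membrane collagen, had 14 counts over the untreated group, 11 with APTK and 5 with APTKA medium, and Col6a5 had 9, 1 and 0.

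The genes that make, finish and degrade collagen were examined in 4 lists. Of their genes, 3 (Dcn, Lum and Fap) are also among the fibroblast markers. The background for all 4 lists is the share of all tested genes. It was 29.9% lower and 31.5% higher with APTKA medium, and 22.5% and 20.9% with APTK medium. Between the media it was 31.8% and 31.1%. Of 21 tested genes for chain modification, folding and export, 18 were lower and 1 higher with APTKA medium against untreated (median log2 change -0.61), 9 were lower and 4 higher with APTK medium (median -0.04), and 20 were lower and 1 higher between the media. P4ha3, a prolyl 4-hydroxylase subunit, went from 15.3 ± 3.45 CPM in untreated to 3.41 ± 0.338 CPM with APTKA medium (-2.16 ± 0.155). Serpinh1, the collagen chaperone HSP47, was 4836 ± 395 CPM in untreated, 3797 ± 39.2 CPM with APTK (-0.35 ± 0.0597) and 2270.3 ± 100.2 CPM with APTKA medium (-1.09 ± 0.0603). Creb3l1, a transcription factor of collagen secretion, fell in both media (-0.79 ± 0.291 and -1.95 ± 0.313). P4ha2, another prolyl 4-hydroxylase subunit, rose in both (0.75 ± 0.0569 with APTK and 0.45 ± 0.0569 with APTKA medium). P4ha1, the main subunit of that enzyme in many cells, rose with APTK medium (0.43 ± 0.0537) and fell with APTKA medium (-0.51 ± 0.0538). P3h2, a prolyl 3-hydroxylase, fell with APTK medium (-0.73 ± 0.191) and measured -0.10 ± 0.177 with APTKA medium.

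Of 16 tested genes for propeptide removal, fibril assembly and crosslinking, 11 were lower and 1 higher with APTKA medium (median -0.42), 6 were lower and 3 higher with APTK medium (median -0.11), and 12 were lower and 3 higher between the media. Fmod, a fibril-binding proteoglycan, was 18.9 ± 2.98 CPM in untreated, 5.06 ± 0.623 CPM with APTK (-1.90 ± 0.180) and 1.31 ± 0.405 CPM with APTKA medium (-3.85 ± 0.216). Pcolce, the enhancer of C-propeptide removal, fell in both media (-0.37 ± 0.0580 and -1.28 ± 0.0589). Lum, a proteoglycan related to Fmod, rose with APTK medium (0.48 ± 0.178) and fell with APTKA medium (-1.14 ± 0.186), and Loxl3, a lysyl oxidase, had the same signs (0.82 ± 0.0939 and -0.25 ± 0.0939). Adamts14, which removes N-propeptides, was the gene of this list that rose with APTKA medium (1.11 ± 0.102), and it fell with APTK medium (-0.42 ± 0.104). Its relative Adamts3 rose with APTK medium (0.77 ± 0.202) and measured -0.36 ± 0.227 with APTKA medium.

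Of 14 tested genes for breakdown and uptake, 9 were lower and 4 higher with APTKA medium (median -0.68), 9 were lower and none higher with APTK medium (median -0.31), and 9 were lower and 5 higher between the media. The 4 that rose with APTKA medium were the secreted metalloproteinases Mmp3, Mmp9 and Mmp13 and the inhibitor Timp1 (0.96 ± 0.0735). Mmp9, a gelatinase, was 5.51 ± 0.312 CPM in untreated, 3.15 ± 0.284 CPM with APTK (-0.81 ± 0.225) and 36.8 ± 3.64 CPM with APTKA medium (2.74 ± 0.184). Mmp13, a collagenase, was 0.614 ± 0.0657, 0.237 ± 0.142 and 3.17 ± 0.291 CPM in the same order (-1.33 ± 0.374 and 2.36 ± 0.236). Mmp3, stromelysin 1, was 0.368 ± 0.217 CPM in untreated and 6.55 ± 1.76 CPM with APTKA medium (4.13 ± 0.454). Timp3, a matrix-bound inhibitor, fell in steps from 384 ± 30.7 to 133 ± 4.69 and 53.0 ± 1.05 CPM (-1.52 ± 0.0566 and -2.86 ± 0.0600), and 1733 of its exon bases overlap Syn3 on the opposite strand.

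Of 11 tested collagen receptors, 8 were lower and none higher with APTKA medium (median -0.71), 4 were lower and 2 higher with APTK medium (median -0.12), and 9 were lower and 1 higher between the media. The integrin subunit Itga1 (-0.40 ± 0.0661 and -1.94 ± 0.0696) and the receptor kinase Ddr2 (-0.46 ± 0.0512 and -1.30 ± 0.0521) fell in both media. Itga11, the subunit of a fibroblast receptor for fibrillar collagen, was 1004 ± 16.7 CPM in untreated, 1732 ± 85.1 CPM with APTK (0.79 ± 0.0616) and 356 ± 22.9 CPM with APTKA medium (-1.50 ± 0.0626). Adgrg1, an adhesion receptor for type III collagen, rose with APTK medium (1.19 ± 0.244) and measured 0.14 ± 0.272 with APTKA medium.

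In the irradiated arm, few collagen genes were called against the plain media. Between irradiated and plain APTKA medium edgeR called no member in either direction, where 0.452% of all tested genes were higher and 0.277% lower. At an unadjusted p under 0.05 there were 12 members, a count not made over all tested genes and so not particular to collagens. DESeq2 called 1 member (Col4a1, higher). Col4a1 was 7312, 7044, 6239.8 and 6591 CPM with plain and 8376, 8334, 7810.4 and 7678 CPM with irradiated APTKA medium (0.24 ± 0.0679, adjusted p = 0.095). Col5a1 was 5273 ± 391 and 6293 ± 459 CPM (0.26 ± 0.0779, adjusted p = 0.13). For both genes the irradiated libraries were all above the plain ones. Col9a3 (-0.53 ± 0.183), Col27a1 (-0.36 ± 0.149) and Col11a2 (-0.31 ± 0.122) had the opposite sign and did not pass the adjusted threshold. With only the compared groups in the fit, 4 members were called higher (Col4a1, 0.23, Col4a2, 0.18, Col5a1, 0.25, and Col12a1, 0.20) and 2 lower (Col9a3, -0.53, and Col27a1, -0.37), with adjusted p of 0.020 to 0.044. Without a filter on low counts, Col1a2, Col4a1, Col5a1 and Col12a1 were called higher. Without irradiated APTK library II, which enters this test through the shared estimate of the spread, 3 members were called higher: Col4a1 (adjusted p = 0.0090), Col4a2 (0.036) and Col5a1 (0.015). The shares of all genes called in these alternative fits were not counted, so their counts of members say nothing particular to collagens.

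Between irradiated and plain APTK medium, 2 members were lower and none higher, against 0.837% and 0.547% of all tested genes. Col8a2 was 23.1, 22.5, 28.5 and 26.1 CPM with plain and 14.2, 9.92, 20.1 and 17.7 CPM with irradiated APTK medium (-0.67 ± 0.136, adjusted p = 0.017). Col9a3 was 2.77, 3.40, 3.26 and 2.89 CPM with plain and 2.14, 0.917, 1.79 and 2.19 CPM with irradiated medium (-0.78 ± 0.195, adjusted p = 0.040). The arms did not overlap for either gene. Neither call held throughout. That of Col8a2 was lost without APTK library III (adjusted p = 0.071) or IV (0.052) or irradiated APTK library I (0.071), with changes of -0.60, -0.65 and -0.63. With only the compared groups in the fit both calls were lost, at changes of -0.68 for Col8a2 (adjusted p = 0.21) and -0.79 for Col9a3 (0.21). That of Col9a3 was lost without APTK library II, III or IV, irradiated APTK library I, II or III, APTKA library II, or irradiated APTKA library I or III, with adjusted p of up to 0.12 and changes of -0.86 to -0.61. Without irradiated APTK library IV, 4 members were called lower, with Col28a1 (-0.41) and Col4a5 (-0.23) added. The share of all genes called lower in that fit was not counted.

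Col8a1 differed by 0.04 ± 0.0524 between the APTK arms, and its ratio to Col8a2 per length was 35.6 ± 11.7 with irradiated against 20.0 ± 2.19 with plain APTK medium, without overlap. In both APTKA arms Col8a2 was low (1.92 ± 0.143 and 1.87 ± 0.407 CPM). The test of whether the irradiated arm's effect differed between the media called no collagen gene by edgeR. At the same adjusted threshold, 0.121% of all tested genes were higher and 0.0607% lower. At an unadjusted p under 0.05 there were 9 members. That count was not made over all tested genes, so it says nothing particular to collagens. Without a filter on low counts, 7 members were called higher in the test of this difference: Col4a1, Col5a1, Col5a2, Col8a2, Col11a1, Col12a1 and Col28a1, with adjusted p of 0.0084 to 0.038. Without irradiated APTK library IV, 2 members passed: Col28a1 (0.69, adjusted p = 0.030) and Col4a5 (0.33, adjusted p = 0.039). The shares of all genes called in these alternative fits were not counted, so their counts of members say nothing particular to collagens.

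**Figure D5:**
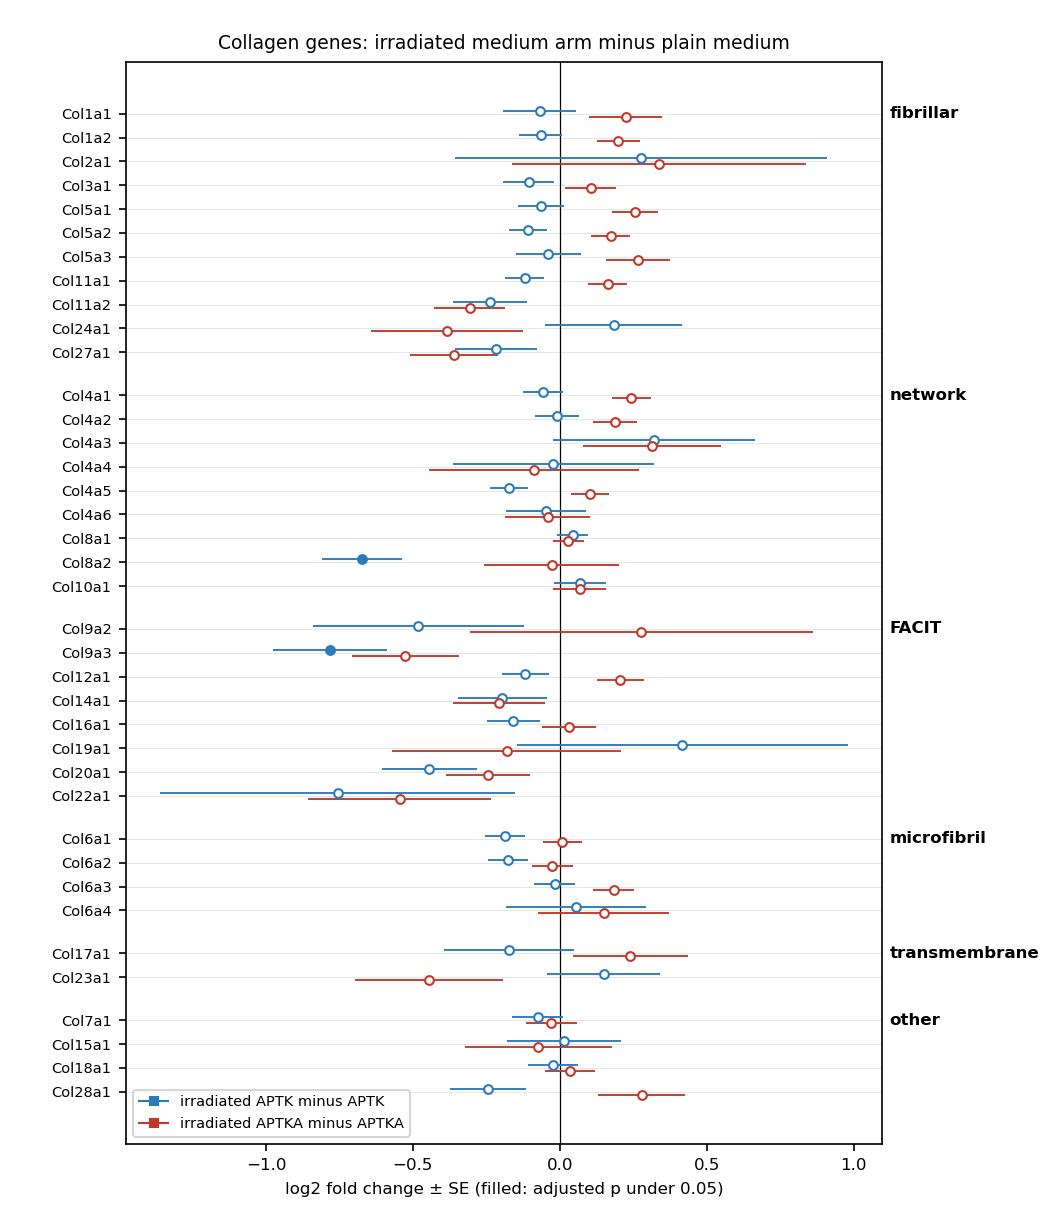
Log2 fold change ± SE (x axis) of the 38 tested collagen genes, grouped by class, for irradiated against plain APTK medium (blue) and irradiated against plain APTKA medium (red); filled points passed an adjusted p of 0.05. The filled points are Col8a2 (-0.67) and Col9a3 (-0.78) with APTK medium.

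The difference between the organoid lines was also present in the irradiated arm. With irradiated APTKA medium, 25 members were lower and 6 higher than with irradiated APTK medium, against 31.2% and 30.1% of all tested genes, and the collagen median was -0.43. Without irradiated APTK library II these counts were 26 and 5, and without irradiated APTKA library IV 23 and 5. Over the 32 members at or above the filter's level in all libraries, 24 were lower and 4 higher. Col8a2 (-3.05 ± 0.177), Col23a1 (-1.73 ± 0.225), Col24a1 (-1.68 ± 0.249), Col15a1 (-1.53 ± 0.222) and Col9a2 (-1.50 ± 0.463) fell most. The 6 that rose were Col22a1 (2.12 ± 0.488), Col5a3 (1.26 ± 0.112), Col4a3 (1.21 ± 0.277), Col20a1 (0.62 ± 0.157), Col17a1 (0.56 ± 0.210) and Col12a1 (0.30 ± 0.0798). Col22a1 and Col4a3 passed the filter through libraries with APTKA medium alone, plain and irradiated, and Col9a2 through libraries without it. Their calls therefore support nothing further. Type VI collagen was lower (Col6a1 -1.21 ± 0.0681, Col6a2 -1.37 ± 0.0695, Col6a3 -0.90 ± 0.0704), as were Col4a1 (-0.47 ± 0.0680) and Col1a2 (-0.59 ± 0.0739).

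Some calls between the irradiated media lay near the threshold or depended on which libraries were in the fit. Col9a2 was lost without irradiated APTK library IV (-0.998, adjusted p = 0.094) and Col18a1 (-0.27 ± 0.0861) without irradiated APTK library III (-0.18, adjusted p = 0.060). Col1a1 (-0.34 ± 0.124) was lost without irradiated APTK library I (adjusted p = 0.064) or IV (0.094) or irradiated APTKA library IV (0.078), with changes of -0.31, -0.26 and -0.28. It was also lost without a filter on low counts (-0.31, adjusted p = 0.12). Col17a1 was lost without irradiated APTK library II (0.053) or III (0.057) or irradiated APTKA library III (0.090) or IV (0.070), with changes of 0.50, 0.53, 0.44 and 0.48, and with only the compared groups in the fit (0.56, adjusted p = 0.061). Col5a2 (-0.15 ± 0.0651, adjusted p = 0.049) lay at the threshold and was lost in most such fits. Col7a1 (-0.10 ± 0.0865) was gained without irradiated APTK library II (adjusted p = 0.039).

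The pathway lists of the irradiated arm gave 18 lower and 1 higher of 21 for synthesis and secretion, 9 and 3 of 16 for propeptide removal and crosslinking, 8 and 5 of 14 for breakdown and uptake, and 9 and 1 of 11 for receptors. Over all tested genes the shares between the irradiated media were 31.2% lower and 30.1% higher. Between irradiated and plain medium, the breakdown list was the one with calls. Of all tested genes, 0.452% were higher between the APTKA arms and 0.547% between the APTK arms. Timp3 (0.36 ± 0.0577), the membrane-bound metalloproteinase Mmp14 (0.33 ± 0.0618) and the cathepsin Ctsk (0.33 ± 0.0595) were higher with irradiated APTKA medium, and Mmp13 (1.69 ± 0.363) and Ctsk (0.33 ± 0.0582) with irradiated APTK medium.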

How the data were processed

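Read counts per gene, whole numbers not normalised, were deposited for 20 libraries. The submitters' processing notes name STAR 2.5.2a, bcl2fastq 2.20.0.422, the build mm10 and featureCounts 1.5.0-p1. Which annotation release was counted, whether strand was used and how reads matching several places were handled is not given in the sources used here. Gene symbols, exons and coordinates came from a GENCODE annotation of the same build, and promoters from RefSeq.

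Groups were taken from the labels. Counts were scaled by TMM and fitted in 1 model over all 20 libraries with edgeR 4.0.16 (quasi-likelihood test, R 4.3.3) after its filter by group. The fit had 15 residual degrees of freedom. P-values were adjusted by Benjamini and Hochberg over 14820 genes, and the SE is the log2 fold change divided by the square root of F. CPM are TMM-scaled. Per-length values divide by the union of annotated exons, which includes exons these cells may not use. Shares and chain ratios were described without a test. Counting error is small for abundant members, and members near 0.379 CPM rest on few counts.

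All 7 comparisons had 4 libraries a group. Counts of replicate libraries differed by more than sampling noise in every pair (chi-square per degree of freedom 4.79 to 88.2, highest within irradiated APTK). Alternatives were other scalings, no filter, DESeq2 1.42.0, a block for the replicate number, fits of the compared groups alone, and leaving out each library. The script was tested on simulated data. The genes given with full values were the 2 most abundant members of each class, the 5 largest called rises and falls of each comparison, chains that form 1 protein with them, members under the filter, and up to 3 called genes with the largest change from each list. Further members were named to account for the family. Members and lists were chosen with earlier results of these data known.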

Additional observations from a re-analysis of the deposited data

Results flagged for a closer look

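In 7 of the 190 groups of 4 libraries formed by the 38 tested members, 1 library stood apart from the other 3 by Dixon's criterion at its 95% level. That is 3.68% of groups, and chance flags about 5%. Irradiated APTK library II, the library with the fewest counts, was the lowest of its group for 26 of the 38 members and met this criterion for 3 of them. It had 9157 CPM of Col4a1 (the others 11535 to 11957), 6063 CPM of Col5a1 (8132 to 8311) and 11.6 CPM of Col11a2 (18.8 to 19.9). Irradiated APTK library IV was the highest for Col9a2, at 0.586 CPM (0.220 to 0.246), and the lowest for Col24a1, at 21.7 CPM (35.5 to 36.4). APTK library III was the lowest for Col6a3, at 4165 CPM (5067 to 5097), and irradiated APTKA library I the highest for Col12a1, at 1998 CPM (1721 to 1757). The part of library depth in these values was not tested.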

How the results depend on the processing

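Of the 109 calls of collagen members, 95 were kept under every alternative that tested the member. Setting aside the leaving-out of single libraries, 104 were kept, and none reversed. A call was not counted as lost where the member failed an alternative's filter and was not tested, so these counts are upper limits. Under other scalings the median of all tested genes moved by at most 0.0726 (log2), and no count of members moved by over 1.5 times. Counts moved that far mostly in the irradiated arm. Without a filter, with 43 members tested, 4 were higher between irradiated and plain APTKA medium in place of 0, and 7 were higher in the difference between the arms' effects in place of 0. DESeq2 called 1 higher in the first of these. With only the compared groups in the fit, 3 of 34 tested members were higher between APTKA and APTK medium in place of 5, 4 were higher and 2 lower between irradiated and plain APTKA medium, and 0 were lower between irradiated and plain APTK medium in place of 2. Col19a1 and Col22a1, called higher between the media in the main fit, were at the filter's level in 1 and 3 APTKA libraries and in no APTK library. They were not among the 34 members tested. The cause of the other moves was not tested. Shares of all genes called were not counted in the alternative fits, including those leaving out single libraries, so their counts of members say nothing particular to collagens.

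Leaving out single libraries, members higher with APTK medium ranged from 2 to 6 and members lower between the APTK arms from 0 to 4. Members higher between the APTKA arms ranged from 0 to 3, and those higher in the difference between the arms' effects from 0 to 2. Same-numbered libraries of different groups did not deviate together: none of 40 pairs correlated above 0.1 (-0.108 to 0.0959). Only 3 of 20 libraries correlated best with their own number. The labels do not explain the numbers, and this check cannot show whether same-numbered libraries share a culture, animal or batch. With the replicate block, 1 member was lower between the APTK arms in place of 2 (Col9a3, adjusted p = 0.051, was lost). Col24a1 was called with APTKA (-0.57) and APTK medium (0.57), and Col5a2 was lost between the irradiated media (adjusted p = 0.064).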
